A study of Mus musculus with 12 samples.

Results

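The response of the wild-type C57BL/6 mouse lung to bleomycin was measured as the difference between 3 arrays of lungs given bleomycin and 3 arrays of lungs given saline, all harvested at day 21 after the injection. Both agents had been placed in the airway through the trachea, the lungs were perfused with PBS, and total RNA of lung tissue was labelled and hybridized to Affymetrix expression arrays. The series holds 12 arrays in all, and the other 6 are of FIZZ2 knockout lungs of the same strain, harvested at day 21, 3 after saline and 3 after bleomycin. FIZZ2 is the resistin-like protein encoded by Retnlb. The labels give no dose, age or sex, and they do not say whether the 3 samples of a group are separate animals, so the p-values reflect only how these samples vary, which may be technical. Of 45101 probe sets, 34958 were paired with exactly 1 gene, and each of 18194 genes was represented by its brightest probe set, by mean over the 12 arrays. All of these genes are members of the comparison.

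Bleomycin is a glycopeptide that cuts DNA, and in the mouse lung it injures the epithelium and endothelium, draws in inflammatory cells and is followed by deposition of extracellular matrix by activated fibroblasts. Macrophages recruited from blood monocytes take up debris and lipid in the injured regions, while surviving alveolar type 2 cells divide and pass through intermediate states. The model is the usual one for experimental lung fibrosis, and the lesions are patchy, so a whole-lung sample mixes fibrotic with spared tissue.

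Values are log2 signals, folds are the higher group mean over the lower, and log2 changes are bleomycin minus saline with the SE of a limma model over all 12 arrays. A gene was called, and is said to have risen or fallen, when its p, adjusted by Benjamini-Hochberg over the 18194 genes, was under 0.05. In bulk tissue, fewer cells of a type and less RNA per cell cannot be told apart. Defining markers of lung were bright on all 6 arrays: the mean after saline was 14.20 for Sftpc, the surfactant protein C gene of type 2 cells, 14.14 for Scgb1a1 of club cells, 13.89 for Ager of type 1 cells, 12.01 for Cldn5 of endothelium and 8.64 for Foxj1 of ciliated cells. Array-to-array correlation was between 0.988 and 0.995 within the saline group and between 0.994 and 0.996 within the bleomycin group. Saline array 2 stood apart from the other wild-type arrays in the controls for RNA quality. Its 3'-minus-5' difference was 1.41 for actin and 1.42 for Gapdh, against 0.35 to 0.96 on the other 5. Its 18S ribosomal RNA signal was 11.37 against 6.82 to 9.88. Saline array 1 (0.96 for actin, 0.80 for Gapdh) also lay above every bleomycin array in that difference, and saline array 3 (0.64 and 0.35) did not. The group means were 1 and 0.86 after saline and 0.60 and 0.47 after bleomycin. For 69 olfactory and vomeronasal receptor genes, taken here as a reference for dim signal, the median level was 3.46 after saline, and the 95th percentile was 4.80 after saline and 4.68 after bleomycin. A fold against a group mean at or under that percentile is given as "at least".

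In these arrays 5045 genes passed the test, which is 27.7% of those tested, with 2428 higher (13.3%) and 2617 lower (14.4%) after bleomycin. The response was broad and mostly small: the median log2 change was 0.54 among the genes that rose and -0.47 among those that fell, against -0.04 over all genes. Of the 5045, 738 changed at least 2-fold (4.06%), and here rises outnumbered falls, with 484 higher (2.66%) and 254 lower (1.4%). The asymmetry grew with size. Between 2 and 3 log2 units 102 genes rose and 23 fell, and above 3 units 19 rose and 2 fell. Subtracting each array's median moved the split of the calls from 48.1% higher to 37.2% higher, with 1955 rises and 3295 falls, so the near balance between directions depends on the scaling. In 7272 genes (40.0%) the 3 bleomycin arrays did not overlap the 3 saline arrays, 4900 of them called. Dim genes were called less often: 6.25% passed with a mean under 4, against 33.3% to 37.8% in each level class from 5 upwards.

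**Figure D1:**
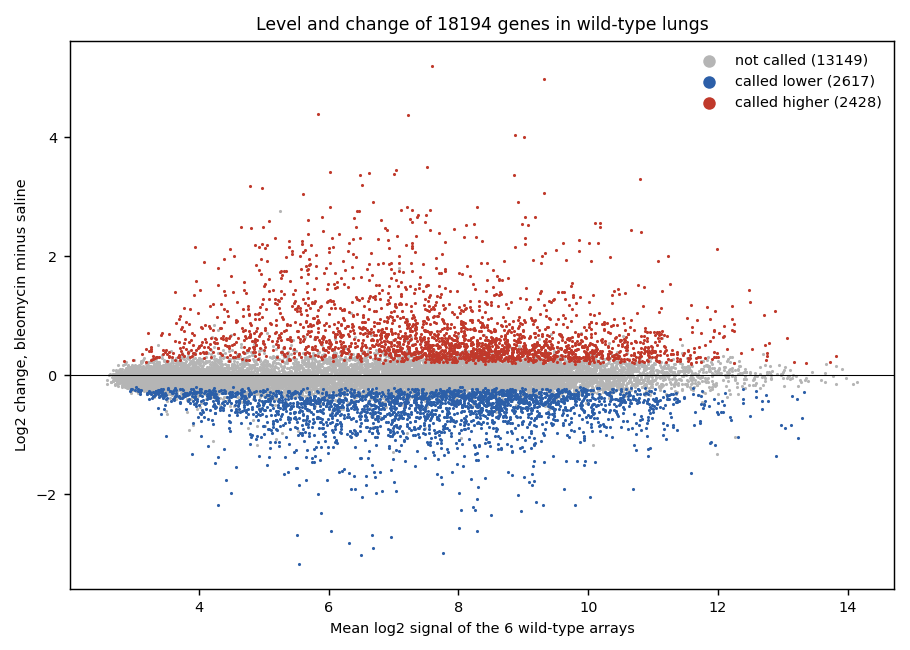
Log2 change (bleomycin minus saline, y axis) against the mean log2 signal of the 6 wild-type arrays (x axis) for 18194 genes, with called rises in red, called falls in blue and the others in grey. Rises reach above 5 and falls just past -3, and few genes under a mean of 4 are called.

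Below the 10 largest rises, ranks 11 to 30 held genes of matrix, growth signals, macrophages and cell division. Eln, which encodes tropoelastin, read 8.78, 9.30 and 9.37 after saline and 12.60, 12.40 and 12.36 after bleomycin. The groups lay far apart, and the rise was 9.89-fold (log2 change 3.31 ± 0.19, adjusted p = 3.83e-07). Pla1a, a phosphatidylserine-specific phospholipase, read 4.51, 4.94 and 4.92 after saline and 8.75, 7.89 and 7.86 after bleomycin, a rise of at least 10.4-fold (log2 change 3.37 ± 0.20, adjusted p = 3.83e-07). Clec4n, which encodes the fungal receptor dectin-2, rose 10.3-fold (log2 change 3.36 ± 0.20, adjusted p = 3.83e-07), and saline array 2 was the highest of its saline arrays at 7.72. Lama1, the alpha chain of the laminin of early basement membranes, was near the dim reference after saline, with 4.09, 3.91 and 4.23 after saline and 7.33, 6.89 and 7.17 after bleomycin. Its rise was at least 8.32-fold (log2 change 3.06 ± 0.18, adjusted p = 3.83e-07), and no array of one group approached the other.

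Several other genes in those ranks encode secreted signals and their antagonists. Ereg, an epidermal growth factor receptor ligand, read 3.23, 3.29 and 3.08 after saline and 6.45, 6.77 and 5.95 after bleomycin, so the rise of at least 9.11-fold (log2 change 3.19 ± 0.23, adjusted p = 1.56e-06) is a lower bound. Fst, which encodes follistatin, an antagonist of activin, read 5.70, 6.17 and 6.24 after saline and 9.47, 8.25 and 8.45 after bleomycin, with bleomycin array 1 the highest. It rose 6.45-fold (log2 change 2.69 ± 0.25, adjusted p = 8.55e-06). Sfrp1, a secreted Wnt antagonist, rose 8.37-fold (log2 change 3.07 ± 0.22, adjusted p = 1.79e-06). Kng1, a kininogen gene, rose at least 8.90-fold (log2 change 3.15 ± 0.26, adjusted p = 2.93e-06) from a dim level, and a close paralogue, Kng2, may share its signal. The chemokine gene Ccl12 rose 6.79-fold and the protease gene Adamts12 9.20-fold. Cilp, a cartilage matrix protein gene, rose 6.86-fold.

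The macrophage genes of these ranks were the scavenger receptor Msr1 (7.55-fold), Gpnmb (7.14-fold), Ms4a7 (6.87-fold), the complement C3a receptor C3ar1 (7.09-fold) and Wfdc17 (7.55-fold). Genes of dividing cells were the cytokinesis gene Cep55 (at least 7.14-fold), the mitotic kinase Pbk (6.87-fold) and the cyclin-dependent kinase Cdk1 (6.44-fold). Clca3a1, of a small cluster of near-identical genes, rose 6.81-fold on a probe set of a type that can cross-hybridize.

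The falls at ranks 11 to 30 included enzymes of xenobiotic metabolism, genes of heart muscle, insulin-like growth factor binding proteins and natural killer genes. Cyp1a1, a cytochrome P450 that oxidizes aromatic hydrocarbons, read 9.61, 9.51 and 8.75 after saline and 5.61, 7.40 and 7.15 after bleomycin. Bleomycin array 1 was the lowest, the groups did not overlap, and the fall was 5.94-fold (log2 change -2.57 ± 0.38, adjusted p = 2.91e-04). Gzma, the granzyme A gene of cytotoxic lymphocytes, read 9.99, 10.52 and 9.81 after saline and 7.31, 8.05 and 8.11 after bleomycin, a fall of 4.88-fold (log2 change -2.29 ± 0.23, adjusted p = 1.34e-05). Igfbp6 read 10.85, 11.04 and 11.26 after saline and 9.02, 8.91 and 9.11 after bleomycin and fell 4.11-fold (log2 change -2.04 ± 0.18, adjusted p = 6.43e-06), while Igfbp3 fell 4.79-fold (log2 change -2.26 ± 0.30, adjusted p = 1.38e-04). Both bind insulin-like growth factors outside the cell. Lrat, which stores retinol as esters, read 10.36, 9.43 and 9.99 after saline and 7.93, 8.55 and 7.25 after bleomycin and fell 4.05-fold (log2 change -2.02 ± 0.27, adjusted p = 1.43e-04).

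Metabolic enzymes and other genes made up the rest of these falls. Pon1, a lipoprotein-associated lactonase, fell 4.53-fold (adjusted p = 7.91e-04). Gsta2, a glutathione transferase, fell 4.13-fold (adjusted p = 1.89e-05). Acaa1b of the peroxisomal beta-oxidation pathway fell 4.98-fold (adjusted p = 3.65e-05), Lypd2 5.11-fold, Bex4 4.23-fold, Chad, the chondroadherin gene, 3.95-fold, and the sodium channel gene Scn3a 3.85-fold. Asgr1 fell at least 4.54-fold and Klra8, a natural killer receptor gene of a family of near-identical members, at least 3.97-fold, both to the level of the receptor reference. Sln, Mb, Myl7 and Myh6 encode proteins of muscle, and Cox7a1 and Cox8b the muscle and brown fat forms of respiratory subunits; they fell between 3.93-fold and 4.79-fold and are taken up with the heart genes.

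**Figure D2:**
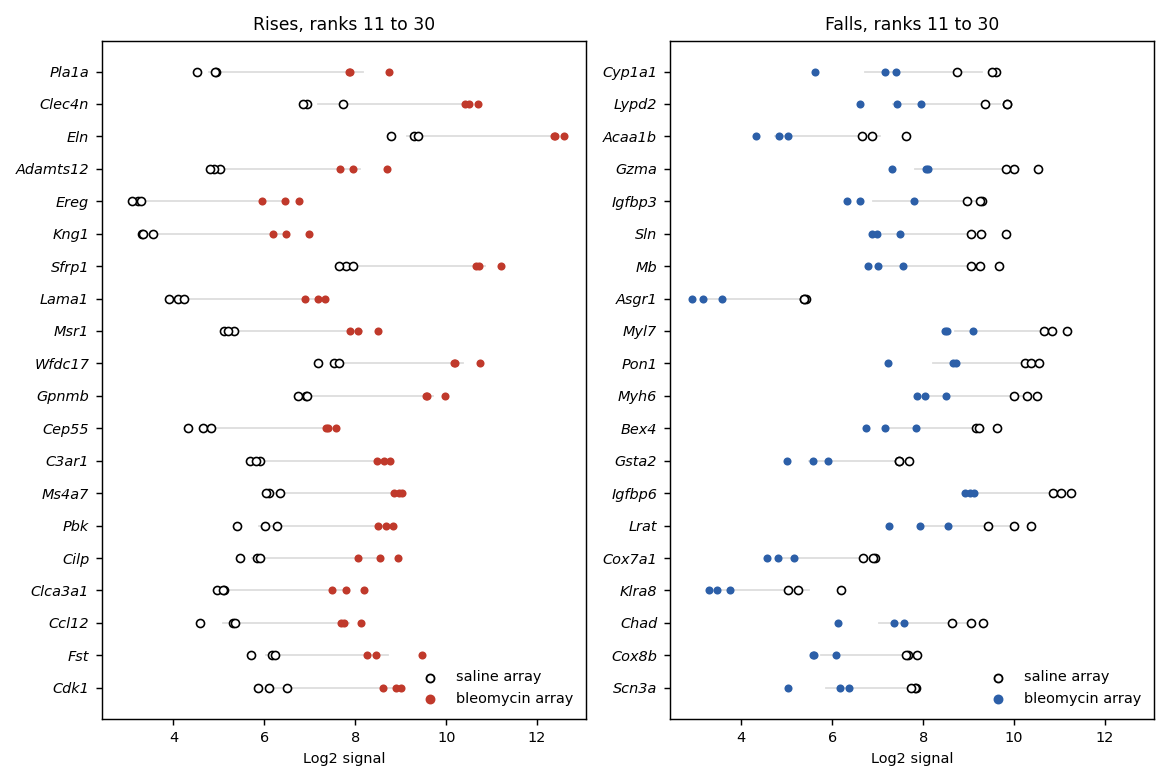
Log2 signal on each of the 3 saline (open circles) and 3 bleomycin (filled circles) wild-type arrays for the genes at ranks 11 to 30 among rises (left) and falls (right), ordered by the size of the change. By the naming rule no gene shown has overlapping groups, and the bleomycin arrays spread more among the falls, as in Cyp1a1 from 5.61 to 7.40.

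Ranking by p in place of size brought up genes with the tightest replicates. Mest, an imprinted gene that encodes a hydrolase, had the smallest p of all 18194 genes. It read 6.75, 6.54 and 6.83 after saline and 9.10, 9.18 and 9.22 after bleomycin and rose 5.49-fold (log2 change 2.46 ± 0.09, adjusted p = 1.92e-08). Iqgap3, a scaffold protein of proliferating cells, rose 4.14-fold (log2 change 2.05 ± 0.09, adjusted p = 9.20e-08). Lrg1, which encodes a secreted leucine-rich glycoprotein, rose 3.77-fold (log2 change 1.91 ± 0.09, adjusted p = 1.28e-07), and Cd68, the macrophage sialomucin, rose 4.48-fold (log2 change 2.16 ± 0.11, adjusted p = 1.58e-07). The inhibitory myeloid receptor gene Cd200r1 rose at least 5.36-fold (log2 change 2.42 ± 0.13, adjusted p = 2.98e-07), the mitotic kinesin gene Kif20a at least 4.47-fold (log2 change 2.16 ± 0.12, adjusted p = 2.98e-07), and Bst1, which encodes the ectoenzyme CD157, 2.75-fold (log2 change 1.46 ± 0.08, adjusted p = 3.56e-07).

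Genes of proliferation gave some of the most uniform lists. Of 40 measured DNA replication genes, 33 rose and 0 fell by limma (0 at an unadjusted p under 0.05), with a median log2 change of 0.74 against -0.04 over all genes. Rrm2, the regulated subunit of ribonucleotide reductase, rose 4.75-fold (log2 change 2.25 ± 0.19, adjusted p = 3.13e-06). The licensing factor gene Cdc6 rose at least 2.59-fold (log2 change 1.37 ± 0.10, adjusted p = 2.44e-06), the clamp loader subunit Rfc5 2.11-fold, and the sliding clamp gene Pcna 1.49-fold. Among 54 genes of mitosis and the kinetochore, 48 rose and 1 fell, with a median of 1.71. Cdk1 read 6.10, 6.49 and 5.87 after saline and 9.01, 8.62 and 8.89 after bleomycin, with every bleomycin array above every saline array by over 2 units. The spindle kinase Aurka rose at least 3.41-fold (log2 change 1.77 ± 0.11, adjusted p = 4.61e-07) and the topoisomerase gene Top2a 5.26-fold (log2 change 2.40 ± 0.26, adjusted p = 2.26e-05). The one member that fell was the securin gene Pttg1, 1.58-fold (adjusted p = 1.87e-04).

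Promoters of this list are shown because its members moved as a block and because 2 short motifs known from cell cycle promoters, the CCAAT box and the cell cycle homology region with its core TTTGAA, can be read in them. Members shown are 4 of the 5 with the smallest p, each as the 250 bases before the start site in RefSeq GRCm38.p6, 5' to 3' on the gene's strand. Capitals mark CCAAT or TTTGAA on either strand. Aurka lies at chr2:172370571-172370820 (minus strand), Cdk1 at chr10:69352913-69353162 (minus), Racgap1 at chr15:99651657-99651906 (minus) and Ube2c at chr2:164769679-164769928 (plus).
Aurka: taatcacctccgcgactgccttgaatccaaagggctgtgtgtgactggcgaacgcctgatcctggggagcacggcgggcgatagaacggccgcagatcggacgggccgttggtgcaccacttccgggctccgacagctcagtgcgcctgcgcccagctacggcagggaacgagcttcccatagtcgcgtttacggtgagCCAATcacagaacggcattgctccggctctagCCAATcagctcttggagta
Cdk1: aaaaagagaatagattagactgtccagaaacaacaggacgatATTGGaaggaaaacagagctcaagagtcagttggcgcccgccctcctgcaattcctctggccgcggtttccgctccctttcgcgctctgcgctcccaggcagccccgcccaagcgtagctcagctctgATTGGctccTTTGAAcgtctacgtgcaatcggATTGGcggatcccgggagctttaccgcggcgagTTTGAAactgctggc
Racgap1: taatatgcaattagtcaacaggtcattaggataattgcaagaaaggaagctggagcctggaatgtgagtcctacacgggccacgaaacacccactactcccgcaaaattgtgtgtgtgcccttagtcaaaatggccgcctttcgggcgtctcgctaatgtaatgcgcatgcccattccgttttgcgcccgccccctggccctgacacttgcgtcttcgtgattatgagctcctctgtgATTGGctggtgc
Ube2c: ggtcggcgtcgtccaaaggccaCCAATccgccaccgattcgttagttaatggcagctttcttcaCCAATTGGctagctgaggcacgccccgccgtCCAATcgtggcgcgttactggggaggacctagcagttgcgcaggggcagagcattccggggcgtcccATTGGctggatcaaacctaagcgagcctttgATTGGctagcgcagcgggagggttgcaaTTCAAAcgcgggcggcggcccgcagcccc
Cdk1 holds 3 CCAAT and 2 TTTGAA matches in this stretch, Ube2c 6 and 1, Aurka 2 and 0, and Racgap1 1 and 0. Racgap1, whose protein organizes the cleavage plane, rose 2.90-fold, and Ube2c, a ubiquitin-conjugating enzyme of mitotic exit, 5.46-fold.

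Over 50 promoters of 46 genes of the mitosis list with a RefSeq entry, 72.0% held CCAAT within 300 bases (250 before to 50 after the start) against 37.4% of 18110 promoters in the table, and 68.0% held TTTGAA against 13.4%. In the 37 promoters of the replication list these shares were 54.1% and 10.8%. CCAAT was also in 84.2% of sterol synthesis promoters and 76.3% of unfolded protein response promoters, so it was not particular to the mitosis list. The E2F-like core TTCGCGC, by contrast, was in 21.6% of replication promoters, 4.0% of mitosis promoters and 2.34% of all. Both strands were searched, and a CCAAT and a TTTGAA match can share a base at their ends. With only the 250 bases before the start, TTTGAA remained in 36.0% of mitosis promoters against 11.9% of all. A match describes the letters in the window and says nothing of binding.

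Genes of the response to DNA damage moved less uniformly. Of 38 repair genes, 12 rose and 2 fell (median 0.10), led by Brca1 (at least 3.42-fold (adjusted p = 2.61e-06)) and the checkpoint kinase gene Chek1 (at least 2.57-fold (adjusted p = 5.63e-06)), which are also induced in dividing cells. The nucleotide excision repair gene Xpc fell 1.42-fold (adjusted p = 0.00129). Among 34 p53 targets and senescence genes, 17 rose and 4 fell (median 0.22). Cdkn1a, the p21 inhibitor of cyclin-dependent kinases, read 8.48, 8.96 and 8.61 after saline and 10.67, 10.45 and 10.73 after bleomycin, and rose 3.82-fold (log2 change 1.93 ± 0.18, adjusted p = 6.75e-06). The death receptor gene Eda2r rose at least 3.38-fold (log2 change 1.76 ± 0.14, adjusted p = 3.13e-06), Phlda3 1.96-fold and Ccng1 2.04-fold, while Trp73 fell 1.64-fold and the p53-inducible reductase subunit Rrm2b fell 1.51-fold. Cdkn2a, the p16 gene, was dim and not called, at 0.25 ± 0.15, adjusted p = 0.236. The 17 rises became 11 without saline array 1 and 11 with array medians subtracted, and the 4 falls became 2 without saline array 2.

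Elastic fibres are built from tropoelastin deposited on fibrillin microfibrils and crosslinked by lysyl oxidases. Of 20 genes of this assembly, 15 rose and 2 fell, with a median of 0.72. Beside Eln, the latent TGF-beta binding protein gene Ltbp2 rose 4.67-fold (log2 change 2.22 ± 0.21, adjusted p = 7.44e-06), the crosslinking enzyme gene Lox 4.66-fold (log2 change 2.22 ± 0.21, adjusted p = 1.02e-05), and Mfap5, a microfibril protein gene, 2.50-fold (log2 change 1.32 ± 0.12, adjusted p = 8.64e-06). The members that fell were Ltbp4 (1.60-fold (adjusted p = 0.00124)) and the fibulin gene Efemp1 (1.67-fold (adjusted p = 0.00101)). Mfap4 was not called, at -0.02 ± 0.14, adjusted p = 0.947.

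Basement membrane genes followed with 17 of 29 higher and 4 lower (median 0.46). The main type IV collagen chains rose, Col4a1 2.02-fold (adjusted p = 5.79e-06) and Col4a2 2.11-fold (adjusted p = 6.57e-06), and so did the nidogen gene Nid1 (1.59-fold) and the laminin chain Lamc1 (1.5-fold). Col4a6 fell 1.58-fold (adjusted p = 3.61e-04). Integrins, the receptors for these proteins, rose in 13 of 24 subunits and fell in 4 (median 0.41). Itgb6, an epithelial subunit whose integrin activates latent TGF-beta, read 7.63, 7.94 and 7.89 after saline and 9.19, 9.21 and 9.93 after bleomycin, and rose 3.08-fold (log2 change 1.62 ± 0.18, adjusted p = 3.44e-05). The leukocyte subunits Itgb2 and Itgax rose 2.56-fold and 2.65-fold, and the fibronectin receptor subunit Itga5 2.19-fold. Itga8, a marker of alveolar fibroblasts, fell 1.82-fold (log2 change -0.86 ± 0.10, adjusted p = 3.96e-05). With all probe sets of each gene averaged, Itga8 and Col4a6 were no longer called (adjusted p = 0.0995 and 0.0557). The 4 falling subunits became 2 without saline array 1, without saline array 2 and without bleomycin array 2.

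Proteoglycans, which bind water and growth factors in the matrix, went both ways: 16 of 36 genes of hyaluronan and proteoglycans rose and 6 fell. The large proteoglycan gene Vcan rose 4.38-fold (log2 change 2.13 ± 0.23, adjusted p = 2.15e-05), the hyaluronan synthase gene Has2 at least 2.56-fold, and the small proteoglycan genes Fmod 4.99-fold and Bgn 1.45-fold. Of the same small leucine-rich kind, other members went down, Ogn by 2.02-fold (log2 change -1.01 ± 0.10, adjusted p = 1.83e-05) and Omd by 2.05-fold (log2 change -1.03 ± 0.16, adjusted p = 4.80e-04), and Dcn, the decorin gene, was not called at 0.26 ± 0.23, adjusted p = 0.439. Cell junction genes divided as well, with 6 rises and 8 falls among 34 (17.6% and 23.5%, against 13.3% and 14.4% of all genes). Cldn4, a claudin of tight epithelia, rose at least 3.47-fold (log2 change 1.79 ± 0.20, adjusted p = 2.71e-05), and Cdh11, the cadherin of activated fibroblasts, 1.81-fold (adjusted p = 9.44e-05). The kidney and lung cadherin gene Cdh16 fell 2.63-fold (adjusted p = 2.23e-04) and the connexin gene Gjb6 at least 2.17-fold. Those 8 falls became 5 without saline array 1 and 5 without bleomycin array 1.

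Protease inhibitors and clotting factors mostly rose, 15 of 29 against 1 fall (median 0.39). Tfpi2, an inhibitor of plasmin and related proteases, read 5.08, 5.09 and 5.44 after saline and 7.74, 7.20 and 7.33 after bleomycin and rose 4.66-fold (log2 change 2.22 ± 0.15, adjusted p = 1.06e-06). The transglutaminase gene Tgm1 rose at least 4.48-fold, coagulation factors F7 and F10 3.39-fold and 2.15-fold, the protein C receptor gene Procr 2.60-fold, and the serpin gene Serpina3n 3.70-fold. Thrombomodulin, an anticoagulant protein of endothelium encoded by Thbd, fell 1.43-fold (adjusted p = 0.00287). In the calcium-binding S100 family and the annexins, 7 of 23 rose and 5 fell. S100a14 rose 4.69-fold (adjusted p = 1.76e-06) and S100a4 3.78-fold (adjusted p = 2.79e-05), whereas the neutrophil pair S100a8 and S100a9 fell 2.0-fold and 2.70-fold. The 5 falls became 3 without saline array 3.

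Growth signals went both ways. Wnt pathway genes rose in 16 of 49 and fell in 9 (median -0.01). The non-canonical ligand gene Wnt5a read 6.50, 6.45 and 6.60 after saline and 7.66, 7.75 and 7.72 after bleomycin and rose 2.29-fold (log2 change 1.2 ± 0.10, adjusted p = 3.43e-06). Beside the antagonist gene Sfrp1, given above, the antagonist gene Dkk2 rose at least 5.56-fold (log2 change 2.48 ± 0.24, adjusted p = 9.67e-06). Axin2 and Lef1, transcripts that canonical signalling induces, fell 1.59-fold (adjusted p = 3.58e-04) and 1.65-fold (adjusted p = 0.00104), and Wnt2, a ligand of alveolar fibroblasts, fell 1.81-fold (adjusted p = 0.00149).

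For bone morphogenetic proteins, 10 of 33 genes rose and 8 fell. The antagonist genes Grem1 and Fstl1 rose at least 3.87-fold (adjusted p = 5.72e-04) and 2.79-fold (adjusted p = 9.53e-05). The ligand gene Bmp6 fell 2.57-fold (log2 change -1.36 ± 0.12, adjusted p = 5.63e-06), the feedback inhibitor Smad6 2.73-fold (log2 change -1.45 ± 0.22, adjusted p = 3.59e-04), and the endothelial receptor gene Acvrl1 2.03-fold (log2 change -1.02 ± 0.16, adjusted p = 3.94e-04). Another antagonist gene, Chrdl1, fell 2.61-fold (adjusted p = 2.90e-05), so antagonists did not all rise. Bmpr2, the receptor gene mutated in heritable pulmonary hypertension, fell 1.31-fold (adjusted p = 0.00402).

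Among 50 growth factor genes and receptors, 13 rose and 16 fell, and ligands were among the largest rises. Igf1 read 7.60, 8.21 and 7.75 after saline and 10.86, 10.41 and 10.27 after bleomycin and rose 6.32-fold (log2 change 2.66 ± 0.24, adjusted p = 6.89e-06), Pdgfc rose 4.93-fold (log2 change 2.30 ± 0.21, adjusted p = 7.98e-06), and the heparin-binding ligand gene Hbegf 1.55-fold (adjusted p = 4.65e-04). Receptors were among the falls: Kdr, the main VEGF receptor of endothelium, 1.84-fold (log2 change -0.88 ± 0.10, adjusted p = 3.60e-05), Fgfr4 2.89-fold (adjusted p = 4.08e-05), Fgfr3 1.76-fold (adjusted p = 1.50e-04), and Igf1r 1.56-fold (adjusted p = 8.72e-05). With the mean of all its probe sets Fgfr3 was not called (adjusted p = 0.513). Vegfa was not called, at -0.41 ± 0.16, adjusted p = 0.0701. Genes tied to YAP and mechanical load rose in 10 of 24, with the receptor kinase gene Axl at 2.64-fold and the matricellular gene Ccn2 at 1.92-fold. Notch and Hedgehog genes gave 4 rises and 5 falls of 28, with Heyl higher by 1.71-fold (adjusted p = 2.99e-04) and the endothelial ligand gene Dll4 lower by 1.54-fold (adjusted p = 7.80e-04). The shares of that list, 14.3% and 17.9%, were near the 13.3% and 14.4% of all genes. Its 4 rises became 1 without saline array 1 or bleomycin array 2, and 2 without saline array 2 or saline array 3.

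**Figure D3:**
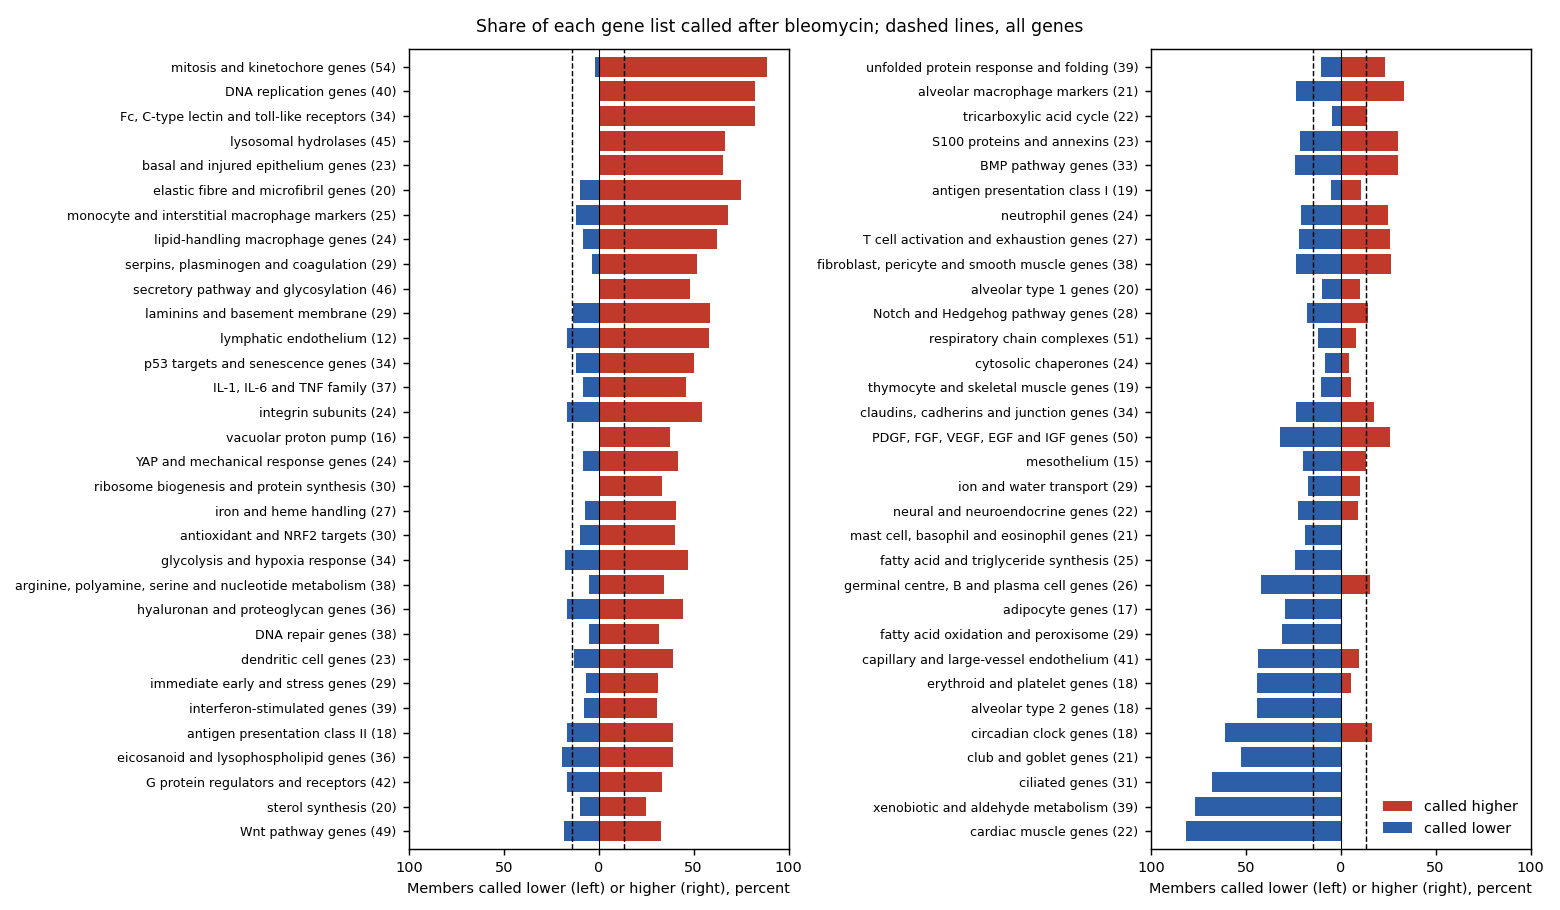
Percent of the measured members of each of 64 gene lists called higher (red, to the right) and lower (blue, to the left) after bleomycin, in 2 panels of 32 lists with the number measured beside each name. Dashed lines mark the shares over all genes, 13.3% higher and 14.4% lower, and the mitosis, replication and myeloid receptor lists extend farthest to the right and the cardiac, xenobiotic and ciliated lists farthest to the left.

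Macrophages clear debris through receptors on the surface and acid hydrolases in lysosomes, and both lists rose without falls. Of 34 Fc, C-type lectin and toll-like receptor genes, 28 rose and 0 fell by limma (1 at an unadjusted p under 0.05), with a median of 0.72. Counted by symbol, 10 of 26 C-type lectin genes rose and 5 fell (median -0.03), so the list does not stand for that family. Clec7a, which encodes dectin-1, read 9.38, 9.41 and 9.20 after saline and 11.21, 11.30 and 11.47 after bleomycin and rose 3.99-fold (log2 change 2.0 ± 0.13, adjusted p = 7.15e-07). The high-affinity IgG receptor gene Fcgr1 rose 4.42-fold (log2 change 2.14 ± 0.20, adjusted p = 6.89e-06) and the inhibitory one, Fcgr2b, 4.16-fold (log2 change 2.05 ± 0.16, adjusted p = 2.50e-06). The inhibitory lectin gene Clec4a2 rose 3.71-fold and Tlr2, a receptor for bacterial lipopeptides, 2.38-fold.

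Lysosomal hydrolase genes rose in 30 of 45, with 0 falling (0 at an unadjusted p under 0.05) and a median of 0.46. Ctsk, the collagen-degrading cathepsin K, read 7.94, 7.94 and 7.73 after saline and 10.38, 10.12 and 10.05 after bleomycin and rose 4.97-fold (log2 change 2.31 ± 0.18, adjusted p = 2.50e-06). The acid phosphatase gene Acp5 rose 3.11-fold (log2 change 1.64 ± 0.11, adjusted p = 8.66e-07), the elastin-degrading cathepsin gene Ctss 2.71-fold (log2 change 1.44 ± 0.10, adjusted p = 1.12e-06), and Ctsd 2.27-fold (log2 change 1.18 ± 0.10, adjusted p = 2.93e-06). The membrane protein gene Lamp1 was not called, at 0.06 ± 0.07, adjusted p = 0.525. The E box CACGTG, a core of the sites that lysosomal regulators bind, was in 31.1% of 45 promoters of the list against 8.72% of all, on both strands. Of 16 genes of the vacuolar proton pump, 6 rose and 0 fell (0 at an unadjusted p under 0.05). The macrophage subunit Atp6v0d2 rose 3.05-fold (log2 change 1.61 ± 0.14, adjusted p = 4.94e-06), and the next largest, Atp6v0e, 1.33-fold. Those 6 became 3 without saline array 1, without bleomycin array 3 and with array medians subtracted. Counted by symbol, 5 of 20 vacuolar ATPase subunit genes rose and 3 fell, 1 of them at least 2-fold, so subunits outside the list fell.

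Genes of lipid-laden macrophages rose in 15 of 24 and fell in 2 (median 0.64). Trem2, a receptor for lipids and debris, read 5.56, 6.38 and 6.04 after saline and 8.63, 8.60 and 8.47 after bleomycin and rose 5.94-fold (log2 change 2.57 ± 0.22, adjusted p = 4.03e-06). The lipoprotein genes Apoe and Lpl rose 1.91-fold (adjusted p = 8.92e-05) and 1.67-fold (adjusted p = 0.00121), while Apoc1 fell 1.82-fold (adjusted p = 0.00151). Of monocyte and interstitial macrophage markers 17 of 25 rose and 3 fell, with C1qa at 5.62-fold and Ccr2, the receptor for monocyte recruitment, at 1.90-fold. Treml4, a gene of patrolling monocytes, fell at least 2.34-fold (adjusted p = 4.77e-04).

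Markers of resident alveolar macrophages were split, 7 higher and 5 lower of 21. The integrin gene Itgax, the mannose receptor gene Mrc1 (2.44-fold) and the oxidized lipoprotein receptor gene Olr1 (3.34-fold) rose. Krt79 fell 3.75-fold (log2 change -1.91 ± 0.20, adjusted p = 1.95e-05) and the lipid droplet gene Cidec 2.56-fold (adjusted p = 0.00283), beside the larger fall of Fabp1. Siglecf, the surface lectin that defines these cells, was not called at -0.25 ± 0.21, adjusted p = 0.413, nor was Marco at 0.95 ± 0.48, adjusted p = 0.163. Neutrophil genes were also split in number, 6 against 5 of 24, but the rises were larger. At least 2-fold were 5 of the rises and 1 of the falls, and the largest rise was 3.46 log2 units. The collagenase gene Mmp8 rose 2.36-fold (adjusted p = 1.83e-05), while Mmp9 and Csf3r fell 1.74-fold (adjusted p = 8.43e-04) and 1.64-fold (adjusted p = 0.00244). Elane, a primary granule protease gene, stood at -0.08 ± 0.11, adjusted p = 0.656. For mast cells, basophils and eosinophils 0 of 21 rose (0 at an unadjusted p under 0.05) and 4 fell, led by the chymase gene Cma1 (at least 1.90-fold (adjusted p = 2.01e-04)), with 16 members at a mean under 5. Dendritic cell genes rose in 9 of 23, led by the actin bundling gene Fscn1 (4.60-fold (adjusted p = 1.42e-05)), and fell in 3, a count that was 0 to 2 with any 1 wild-type array left out.

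Antigen presentation showed no common shift for class I: 2 of 19 genes rose and 1 fell, with B2m at 0.09 ± 0.09, adjusted p = 0.497 and the peptide transporter gene Tap1 at 0.10 ± 0.13, adjusted p = 0.635. For class II 7 of 18 rose and 3 fell; the thiol reductase gene Ifi30 rose 1.49-fold (adjusted p = 3.27e-04) and the co-stimulatory gene Cd86 2.12-fold (adjusted p = 4.35e-04), and the regulator Rfxank fell 1.59-fold (adjusted p = 1.10e-04). Those 7 rises became 4 without saline array 1 or saline array 3, and 3 without bleomycin array 3. Interferon-stimulated genes rose in 12 of 39 and fell in 3 (median 0.10). The T cell chemokine genes Cxcl9 and Cxcl10 rose at least 4.07-fold (log2 change 2.03 ± 0.23, adjusted p = 3.67e-05) and 4.38-fold (log2 change 2.13 ± 0.22, adjusted p = 1.91e-05), the 2 largest of the list, Oas1a 1.75-fold, and Irf1 fell 1.35-fold (adjusted p = 0.00410). With array medians subtracted, 7 members fell in place of 3, and without knockout saline array 1, which shares in the estimate of spread, 5 did. The interferon-stimulated response element core was in 58.1% of the 31 promoters of the list against 3.03% of all.

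Of 37 genes of the interleukin 1, interleukin 6 and tumour necrosis factor families, 17 rose and 3 fell (median 0.37). Among ligands, Il6 rose at least 3.88-fold (log2 change 1.96 ± 0.41, adjusted p = 0.00325) from a dim level and Lif 2.98-fold (log2 change 1.57 ± 0.13, adjusted p = 2.93e-06), while Tnf and Il1b were not called at -0.10 ± 0.09, adjusted p = 0.480 and 0.06 ± 0.23, adjusted p = 0.867. The interleukin 1 receptor antagonist gene Il1rn rose 3.67-fold (log2 change 1.87 ± 0.15, adjusted p = 2.70e-06). Downstream, the feedback inhibitor gene Socs3 read 8.82, 8.68 and 8.66 after saline and 11.22, 10.80 and 10.97 after bleomycin and rose 4.83-fold (log2 change 2.27 ± 0.19, adjusted p = 3.71e-06). Receptors went both ways, with Osmr, Il1r1 and Tnfrsf1b at 1.82-fold, 1.99-fold and 2.08-fold higher and Il6ra at 1.91-fold lower.

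T cell activation genes rose in 7 of 27 and fell in 6. The checkpoint genes Havcr2 and Ctla4 rose 2.20-fold (adjusted p = 3.65e-05) and at least 1.75-fold (adjusted p = 5.44e-04), and the costimulatory receptor genes Tnfrsf4 and Tnfrsf18 1.61-fold and 1.90-fold. Gata3, a regulator of type 2 and innate lymphoid cells, fell 1.84-fold (log2 change -0.88 ± 0.09, adjusted p = 1.49e-05), Tbx21, the regulator of type 1 and natural killer cells, 1.82-fold (adjusted p = 0.00459), and Cd28 1.78-fold (adjusted p = 8.11e-04). For B and plasma cells 4 of 26 rose and 11 fell. The joining chain gene Jchain rose 2.76-fold and the IgA constant region gene Igha 1.94-fold, and the B cell receptor subunit gene Cd79b fell 2.28-fold and the kinase gene Blk 1.90-fold. The follicle chemokine gene Cxcl13 rose 2.12-fold (adjusted p = 0.00254), but the plasma cell regulator gene Prdm1 fell 1.77-fold (adjusted p = 0.00266), and so did Pigr, which carries IgA across epithelium (2.12-fold (adjusted p = 0.00369)).

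Enzymes that detoxify foreign compounds and aldehydes had the highest share of falls of the 64 lists after heart muscle genes. Of 39 measured, 30 fell and 0 rose by limma (0 at an unadjusted p under 0.05), and the median was -0.86. Cyp4b1 read 12.35, 12.23 and 12.61 after saline and 10.38, 10.91 and 10.98 after bleomycin, with bleomycin array 1 the lowest, and fell 3.11-fold (log2 change -1.64 ± 0.17, adjusted p = 1.89e-05). The flavin monooxygenase genes Fmo1 and Fmo2 fell 2.32-fold (log2 change -1.21 ± 0.13, adjusted p = 1.99e-05) and 2.21-fold (log2 change -1.15 ± 0.12, adjusted p = 2.53e-05). Cyp2f2, a P450 of club cells, fell 1.84-fold (adjusted p = 0.00490). By symbol, 13 of 20 glutathione transferases fell and 0 rose (1 at an unadjusted p under 0.05), including Gstm1 at 2.36-fold. Of 70 cytochrome P450 genes 13 fell (18.6%, against 14.4% of all genes) and 3 rose (4.29%, against 13.3%). Of the 70, 46 had a mean under 5. The largest of those rises was Cyp7b1, an oxysterol hydroxylase gene, at 4.12-fold (adjusted p = 6.13e-06).

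Antioxidant genes went the other way in part, 12 of 30 higher and 3 lower. The metallothionein genes Mt1 and Mt2 rose 2.86-fold (log2 change 1.52 ± 0.17, adjusted p = 3.60e-05) and 5.90-fold (log2 change 2.56 ± 0.26, adjusted p = 1.66e-05), and the heme oxygenase gene Hmox1 rose 3.25-fold (adjusted p = 0.00166). Catalase (Cat) and superoxide dismutase 1 (Sod1) fell 1.83-fold (adjusted p = 0.00160) and 1.39-fold (adjusted p = 0.00117). The NRF2 targets Nqo1 and Gclc were not called, at -0.06 ± 0.12, adjusted p = 0.778 and 0.24 ± 0.11, adjusted p = 0.120. The antioxidant response element core TGACNNNGC was in 18.2% of 33 promoters of the list and 13.9% of all. Iron and heme genes gave 11 rises and 2 falls of 27: the phagosomal metal transporter gene Slc11a1 rose 2.73-fold (adjusted p = 3.09e-05) and the iron exporter gene Slc40a1 2.36-fold (adjusted p = 3.80e-04), while Hamp, the hepcidin gene, read 7.75, 7.82 and 7.60 after saline and 4.51, 4.95 and 5.22 after bleomycin and fell 7.10-fold (log2 change -2.83 ± 0.38, adjusted p = 1.39e-04).

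Genes of the respiratory chain and the tricarboxylic acid cycle moved little, while glycolysis and hypoxia genes rose more often than they fell. Of 51 respiratory chain genes 4 rose and 6 fell (median 0.03), and 2 of the falls were the muscle forms Cox7a1 and Cox8b. These small counts moved with single arrays: the 4 rises became 1 or 2 without saline array 1, bleomycin array 2 or bleomycin array 3, and the 6 falls became 3 without saline array 2 or any 1 bleomycin array. The tricarboxylic acid cycle gave 3 and 1 of 22, with citrate synthase (Cs) at 0.16 ± 0.08, adjusted p = 0.153. Glycolysis and hypoxia genes rose in 16 of 34 and fell in 6 (median 0.32). Ankrd37, a target of hypoxia-inducible factor, rose 4.52-fold (log2 change 2.18 ± 0.14, adjusted p = 7.15e-07) and Ndrg1 2.17-fold (adjusted p = 3.65e-05), and the oxygen-labile factor gene Hif1a itself 1.62-fold (adjusted p = 7.05e-05). Isoforms divided: Ldha rose 1.41-fold (adjusted p = 2.53e-04) and Ldhb fell 2.06-fold (adjusted p = 1.51e-04), and Eno3 and Pgam2, the muscle enolase and mutase genes, fell 2.10-fold and 2.05-fold while Pgam1 rose 1.56-fold.

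Lipid metabolism went down in part. Of 25 genes of fatty acid and triglyceride synthesis 6 fell and 0 rose (4 at an unadjusted p under 0.05), among them the triglyceride synthase gene Dgat2 (2.17-fold (adjusted p = 0.00197)) and the acyltransferase gene Gpam (1.70-fold (adjusted p = 1.34e-04)), whose call was lost with the mean of its probe sets (adjusted p = 0.211). Fatty acid oxidation and the peroxisome gave 9 falls and 0 rises of 29 (0 at an unadjusted p under 0.05). The peroxisomal oxidase gene Acoxl read 9.51, 9.88 and 9.42 after saline and 6.11, 7.49 and 7.34 after bleomycin, and fell 6.15-fold (log2 change -2.62 ± 0.30, adjusted p = 3.60e-05). Ppara, the nuclear receptor that drives this pathway, fell 1.77-fold (adjusted p = 3.05e-04). Sterol synthesis was split and small, 5 higher and 2 lower of 20, with the lanosterol demethylase gene Cyp51 at 1.45-fold. Its 5 rises became 2 without saline array 1, 3 without saline array 3 or bleomycin array 3, and 3 with array medians subtracted.

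In amino acid and nucleotide metabolism 13 of 38 rose and 2 fell. Beyond Arg1, the serine synthesis gene Psat1 rose 2.85-fold (log2 change 1.51 ± 0.14, adjusted p = 8.80e-06) and the cytidine triphosphate synthase gene Ctps 2.15-fold (adjusted p = 3.24e-05), while Phgdh, the first enzyme of serine synthesis, was not called at 0.08 ± 0.09, adjusted p = 0.551. Prodh, which degrades proline, fell 1.69-fold (log2 change -0.76 ± 0.08, adjusted p = 2.06e-05). For prostaglandins, leukotrienes and lysophospholipids 14 of 36 rose and 7 fell. The thromboxane synthase gene Tbxas1 rose 2.72-fold (log2 change 1.44 ± 0.13, adjusted p = 4.56e-06) and the lipoprotein-associated phospholipase gene Pla2g7 3.38-fold (log2 change 1.76 ± 0.13, adjusted p = 1.57e-06), both made by macrophages, and the prostaglandin receptor gene Ptger3 at least 5.20-fold (log2 change 2.38 ± 0.27, adjusted p = 3.50e-05). Another prostaglandin receptor gene, Ptgfr, fell at least 3.58-fold (log2 change -1.84 ± 0.26, adjusted p = 1.94e-04), as did Lpar3, a lysophosphatidic acid receptor (3.25-fold (adjusted p = 1.41e-04)), and Hpgd, which inactivates prostaglandins (2.17-fold (adjusted p = 2.85e-04)). Ptgs2, the inducible cyclooxygenase, was not called at 0.43 ± 0.30, adjusted p = 0.307.

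Protein handling changed along the secretory route. Of 46 genes of the translocon, vesicle coats and glycosylation 22 rose and 0 fell (0 at an unadjusted p under 0.05), by small amounts (median 0.24). Kdelr3, which retrieves chaperones to the endoplasmic reticulum, read 7.11, 7.11 and 6.95 after saline and 8.86, 8.37 and 8.33 after bleomycin and rose 2.75-fold (log2 change 1.46 ± 0.13, adjusted p = 6.37e-06). The COPII coat gene Sec23a rose 1.49-fold (adjusted p = 8.28e-04). Genes of the unfolded protein response did not share a direction, 9 higher and 4 lower of 39. The prolyl isomerase gene Ppic rose 2.07-fold (adjusted p = 1.49e-05) and Atf3 2.29-fold (adjusted p = 3.79e-04), but Herpud1 and Ddit3, genes induced by the stress sensors, fell 1.74-fold (adjusted p = 2.32e-04) and 1.53-fold (adjusted p = 0.00186), and the chaperone gene Hspa5 was not called at 0.15 ± 0.10, adjusted p = 0.270. With array medians subtracted 7 of these genes fell in place of 4, and with the mean of all probe sets Ddit3 was not called (adjusted p = 0.124). Of 30 ribosome biogenesis genes 10 rose and 0 fell (0 at an unadjusted p under 0.05), led by Myc (2.58-fold (log2 change 1.37 ± 0.12, adjusted p = 4.08e-06)), the transcription factor gene that drives growth. The 10 rises became 6 without saline array 1, 5 without bleomycin array 3 and 6 with array medians subtracted. Cytosolic chaperones gave 1 rise and 2 falls of 24.

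Most genes of the circadian clock, the transcriptional loop that times daily rhythms, fell. Of 18 clock genes and outputs 11 fell and 3 rose (median -0.50). Nr1d1, which encodes the repressor REV-ERB alpha, read 9.43, 9.48 and 9.84 after saline and 8.27, 8.20 and 8.65 after bleomycin, and fell 2.31-fold (log2 change -1.21 ± 0.15, adjusted p = 8.89e-05). The output factors Dbp, Hlf and Tef fell 1.82-fold (adjusted p = 2.99e-04), 2.18-fold (adjusted p = 4.26e-05) and 1.70-fold (adjusted p = 6.04e-05), Cry2 1.72-fold (adjusted p = 1.78e-05) and Per2 1.74-fold (adjusted p = 0.00423). Nfil3, which opposes the output factors, rose at least 2.16-fold (adjusted p = 1.31e-04), Bhlhe40 1.75-fold (adjusted p = 1.27e-04) and Clock 1.28-fold, and Arntl was not called at 0.37 ± 0.14, adjusted p = 0.0608. The labels give no hour of harvest. Averaging all probe sets of a gene left 7 falls, without Tef (adjusted p = 0.0862).

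Immediate early genes rose in 9 of 29 and fell in 2: Egr2 rose 3.10-fold (log2 change 1.63 ± 0.20, adjusted p = 5.71e-05), Junb 2.19-fold (adjusted p = 2.25e-04) and Fosl2 1.76-fold (adjusted p = 4.99e-05), and Jun fell 1.51-fold (adjusted p = 7.82e-04). Fos and Egr1 were not called, at 0.68 ± 0.31, adjusted p = 0.122 and 0.70 ± 0.28, adjusted p = 0.0824. Of 42 G protein-coupled receptors and regulators, 14 rose and 7 fell. The pericyte regulator gene Rgs5 read 8.10, 7.37 and 7.95 after saline and 10.66, 10.55 and 9.78 after bleomycin and rose 5.75-fold (log2 change 2.52 ± 0.26, adjusted p = 1.96e-05), Rgs4 rose 3.15-fold (adjusted p = 1.88e-06), and the nucleotide receptor genes P2ry14 and P2ry6 2.84-fold (adjusted p = 2.02e-06) and 2.79-fold (adjusted p = 8.94e-06). Ednrb, the endothelin B receptor of alveolar capillaries, fell 3.16-fold (log2 change -1.66 ± 0.17, adjusted p = 1.82e-05). Ion and water transport gave 3 rises and 5 falls of 29, with the chloride channel gene Cftr lower by 2.37-fold (adjusted p = 0.00185), the potassium channel gene Kcnn4 higher by 1.75-fold (adjusted p = 4.99e-05), and the water channel gene Aqp5 at 0.04 ± 0.13, adjusted p = 0.851. Those shares, 10.3% and 17.2%, were near the 13.3% and 14.4% of all genes, and the 5 falls became 3 without bleomycin array 1.

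**Figure D4:**
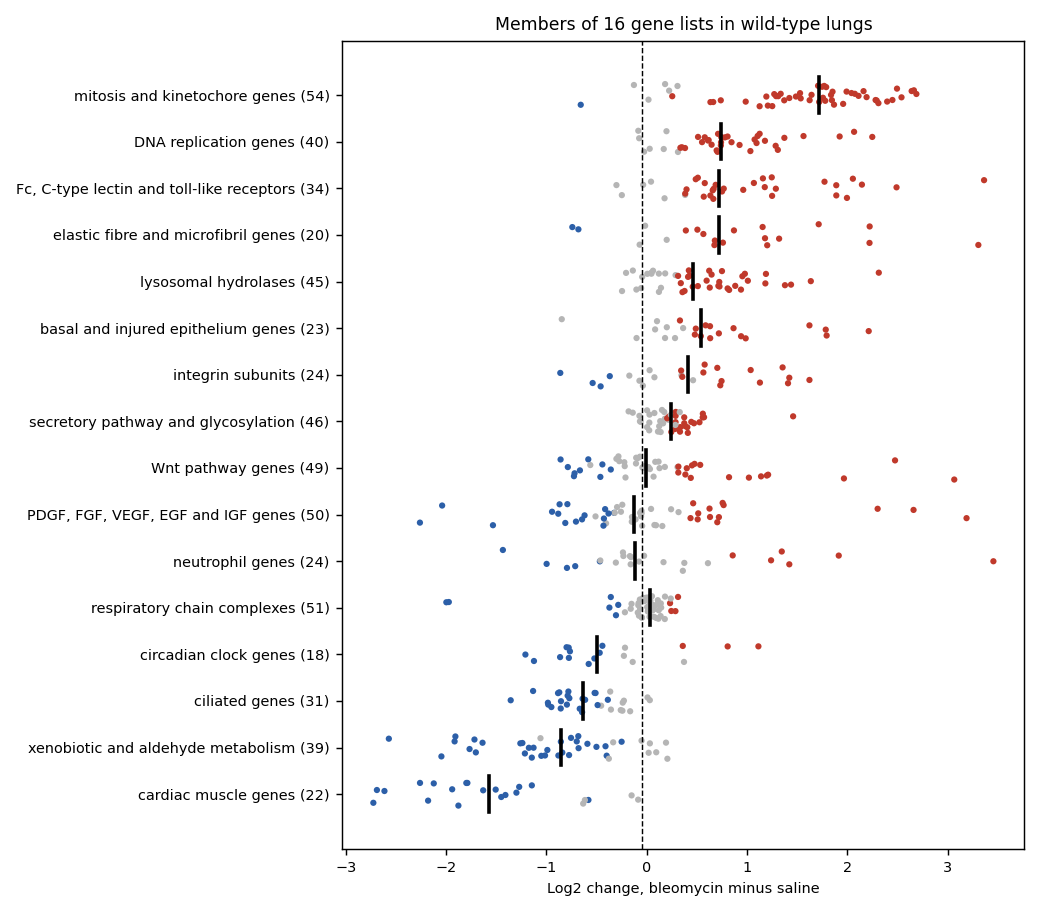
Log2 change (bleomycin minus saline, x axis) of each measured member of 16 gene lists, 1 dot per gene, red or blue where called and grey where not, with a black bar at the list median and a dashed line at the median of all genes, -0.04. Replication, mitosis and myeloid receptor genes lie almost wholly to the right and xenobiotic, cardiac and ciliated genes almost wholly to the left, while Wnt, growth factor and neutrophil genes spread to both sides.

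Marker lists of lung cell types did not share a direction. Ciliated genes fell in 21 of 31 and rose in 0 (0 at an unadjusted p under 0.05), with a median of -0.64; Tppp3 read 11.66, 11.60 and 11.55 after saline and 9.96, 10.29 and 10.48 after bleomycin and fell 2.56-fold (log2 change -1.36 ± 0.13, adjusted p = 8.68e-06), and 10 of 15 dynein genes fell. The mean over the ciliated list was 7.33 to 7.67 on the saline arrays and 6.75 to 7.06 on the bleomycin arrays. Club and goblet genes fell in 11 of 21 and rose in 0 (0 at an unadjusted p under 0.05), with Scgb3a2 at 1.78-fold and the mucin gene Muc5b at 2.10-fold, while the most abundant club cell product, Scgb1a1, was not called at -0.15 ± 0.07, adjusted p = 0.132. Without saline array 1 Muc5b was not called (adjusted p = 0.0534).

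Alveolar type 2 genes fell in 8 of 18 and rose in 0 (1 at an unadjusted p under 0.05). The transcription factor gene Cebpa fell 1.36-fold (adjusted p = 0.00406), Sftpa1 1.65-fold (adjusted p = 0.0102) and the surfactant lipid transporter gene Abca3 1.45-fold (adjusted p = 0.0159). The list mean was 11.77 to 11.80 on the saline arrays, but 10.98 on bleomycin array 1 and 11.69 and 11.73 on bleomycin arrays 3 and 2, so array 1 stood apart from the other bleomycin arrays. Without bleomycin array 1 the list median was -0.15 in place of -0.37. The 8 falls became 5 without saline array 1 or saline array 2, and 3 in the fit of the 6 wild-type arrays alone. Abca3 was not called without saline array 2 (adjusted p = 0.0573), in the fit of the 6 wild-type arrays (adjusted p = 0.0608) or with the mean of all probe sets (adjusted p = 0.0588). Sftpc was not called, at -0.12 ± 0.07, adjusted p = 0.216. Type 1 genes gave 2 and 2 of 20, with Hopx lower by 1.32-fold (adjusted p = 0.00562) and Ager at -0.15 ± 0.08, adjusted p = 0.197, and without saline array 2 the falls were 4. Genes of basal and injured epithelium rose in 15 of 23 and fell in 0 (1 at an unadjusted p under 0.05). Sprr1a, a cornified envelope gene, read 4.45, 4.39 and 4.60 after saline and 6.55, 6.30 and 7.24 after bleomycin and rose at least 4.63-fold (log2 change 2.21 ± 0.20, adjusted p = 6.89e-06). Sfn, which encodes the 14-3-3 sigma protein, rose 3.44-fold (log2 change 1.78 ± 0.18, adjusted p = 1.72e-05) and the keratin gene Krt8 1.40-fold (adjusted p = 0.00321), while Krt5, the basal cell keratin, was not called at 0.36 ± 0.23, adjusted p = 0.262.

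Endothelial genes fell in 18 of 41 and rose in 4 (median -0.27). Tek, the angiopoietin receptor gene, fell 1.63-fold (adjusted p = 1.65e-04), Ramp2 1.71-fold (adjusted p = 1.39e-04), and Car4, of alveolar capillary cells, 1.5-fold (adjusted p = 0.00447). Among the rises, the venous gene Ackr1 read 5.98, 6.13 and 5.95 after saline and 8.83, 7.37 and 7.54 after bleomycin and rose 3.71-fold (log2 change 1.89 ± 0.28, adjusted p = 2.78e-04). Selp, the P-selectin gene, rose 2.86-fold (adjusted p = 0.00228), and the arterial connexin gene Gja4 1.69-fold (adjusted p = 8.26e-04). Another arterial gene, Efnb2, fell 1.56-fold (adjusted p = 0.00159), though it was not called with the mean of all its probe sets (adjusted p = 0.724). The endothelial ligand genes Dll4 and Sema3g also fell, 1.54-fold and 1.51-fold. Lymphatic genes rose in 7 of 12, with Mmrn1 at 2.26-fold and Reln at 1.90-fold, but Lyve1 fell 1.41-fold (adjusted p = 0.00628) and Prox1 was not called at -0.05 ± 0.10, adjusted p = 0.771. Those 7 became 4 without saline array 3. Mesenchymal genes were even, 10 higher and 9 lower of 38. Cthrc1, of matrix-producing fibroblasts, read 6.24, 6.11 and 6.23 after saline and 9.58, 8.75 and 7.98 after bleomycin and rose 5.96-fold (log2 change 2.58 ± 0.27, adjusted p = 1.84e-05). Inmt, of alveolar fibroblasts, fell 2.57-fold (log2 change -1.36 ± 0.11, adjusted p = 3.56e-06), and the transcription factor gene Tcf21 fell 2.27-fold (log2 change -1.18 ± 0.19, adjusted p = 6.11e-04). Of 15 mesothelial genes 2 rose and 3 fell, with Msln at 2.34-fold and Wt1 not called at 0.29 ± 0.14, adjusted p = 0.160.

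A lung sample can carry other tissue, and heart genes moved most. Cardiac muscle genes fell in 18 of 22 and rose in 0 (0 at an unadjusted p under 0.05), with a median of -1.57, and their mean was 7.67, 7.67 and 8.18 on the saline arrays and 6.17, 6.13 and 6.62 on the bleomycin arrays. Myl7, the atrial myosin light chain gene, read 10.65, 10.83 and 11.17 after saline and 8.52, 8.48 and 9.10 after bleomycin and fell 4.53-fold (log2 change -2.18 ± 0.45, adjusted p = 0.00275); Myh6 fell 4.36-fold (log2 change -2.12 ± 0.44, adjusted p = 0.00277). Mouse pulmonary veins carry a sleeve of cardiac muscle, and whether less of it was sampled or its transcripts fell was not tested. Cox7a1, Cox8b, Eno3, Pgam2 and Ckm (2.75-fold (adjusted p = 0.00169)) moved with these genes. Adipocyte genes fell in 5 of 17, and Adipoq varied too much to call, at -0.88 ± 1.0, adjusted p = 0.557. Platelet and erythroid genes fell in 8 of 18, with the platelet tubulin gene Tubb1 at 2.38-fold and the chemokine gene Ppbp at 2.67-fold, and rose in 1, the Selp that endothelium also makes. Neural genes gave 2 rises and 5 falls of 22 (9.09% and 22.7%, against 13.3% and 14.4% of all genes). Of the 22, 13 had a mean under 5. Their 5 falls became 3 without saline array 2.

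Taken by symbol alone, 49 gene families were counted as well. Of 43 cytosolic ribosomal protein genes 3 rose and 0 fell (2 at an unadjusted p under 0.05), of 76 mitochondrial ones 4 and 2, and of 329 Zfp genes 14 (4.26%) and 47 (14.3%, near the 14.4% of all genes). These counts moved with single arrays: without saline array 2 the rising mitochondrial ones were 14, and the 47 falling Zfp genes became 30 without saline array 1 and 29 without bleomycin array 1. Within the Zfp genes, Zfp423 and Zfp521, factors of mesenchymal progenitors, rose 2.32-fold (adjusted p = 2.97e-05) and 1.82-fold (adjusted p = 7.29e-05). Kruppel-like factors fell in 4 of 16 and rose in 0 (1 at an unadjusted p under 0.05), with Klf15, a glucocorticoid-induced factor, at 3.43-fold (adjusted p = 4.81e-05). Nuclear receptor genes fell in 12 of 42 and rose in 3. Hox genes fell in 3 of 33 (9.09%, under the 14.4% of all genes), Hoxb5 by 2.33-fold (adjusted p = 1.15e-04). The 12 falling nuclear receptors became 7 without bleomycin array 3. With array medians subtracted, the falls were 7 for Kruppel-like factors and 6 for Hox genes. Proteasome subunit genes rose in 10 of 39 with 0 falling (1 at an unadjusted p under 0.05), by at most 1.47-fold (Psmd8), and 6 rose in the fit of the 6 wild-type arrays alone. Counts of 3 or fewer are fragile throughout: of 58 such counts over the lists and families, 26 moved by over 1.5 times when 1 wild-type array was left out.

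Solute carriers rose in 43 of 309 (13.9%) and fell in 52 (16.8%), shares near those of all genes, 13.3% and 14.4%. The zinc and iron importer gene Slc39a14 rose 3.28-fold (adjusted p = 7.21e-06) and the lysosomal histidine transporter gene Slc15a3 2.67-fold (adjusted p = 2.82e-05), while the glutamine transporter gene Slc38a5 fell 2.29-fold (adjusted p = 5.17e-05). Potassium channel genes fell in 17 of 80 and rose in 6, and 10 fell among those with a mean of at least 5. Among 41 kinesins 12 rose and 8 fell. The mitotic motors Kif11 and Kif20b rose at least 3.38-fold (adjusted p = 5.63e-06) and at least 3.27-fold (adjusted p = 2.70e-06), and Kif6 and Kif27, associated with cilia, fell 1.63-fold (adjusted p = 5.31e-04) and 1.35-fold (adjusted p = 8.71e-04). The 8 falling kinesins became 5 without saline array 1 or bleomycin array 1 and in the fit of the 6 wild-type arrays, where the 12 rises became 7, and 5 rose among those with a mean of at least 5. Of the tubulin genes, Tubb6 was higher by 3.18-fold (adjusted p = 1.76e-05) and Tubb4a lower by 1.38-fold (adjusted p = 0.00743). Orphan receptors named Gpr rose in 10 of 59 (16.9%, near the 13.3% of all genes) and fell in 4 (6.78%, under the 14.4% of all genes). Gpr160 was 2.30-fold higher and Gpr155 2.88-fold lower, and 5 rose among those with a mean of at least 5.

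The test of the difference between the responses passed in 914 genes (5.02%), of which 869 were also called in wild type. The 914 became 501 without wild-type saline array 1, 380, 455 and 512 without knockout saline arrays 1, 2 and 3, and 400 without knockout bleomycin array 1. In 531 of the 532 that rose in wild type and in all 337 that fell, the knockout change lay on the side of a smaller response. These genes were chosen by their call in wild type, which by itself favours a smaller change in the knockout. Mest rose 2.46 log2 units in wild type and 0.58 in the knockout (adjusted p of the difference 4.11e-05), Lama1 3.06 and 0.70 (9.53e-04), and Acoxl changed by -2.62 and -0.09 (0.00692). Gpnmb rose 2.84 and 2.28, and its difference was not called (0.0990). By list, 40 of 54 mitosis genes and 17 of 34 myeloid receptor genes had a called difference, against 8 of 39 xenobiotic metabolism genes and 3 of 31 ciliated genes. Retnlb itself was within the range of the dim reference on the wild-type arrays, 3.65, 3.84 and 3.57 after saline and 4.13, 3.80 and 3.98 after bleomycin, and its change was not called (0.29 ± 0.11, adjusted p = 0.0690), so its level could not be told from dim signal in either group. In the knockout lungs its mean was 3.69 after saline and 3.63 after bleomycin, and at these levels the probe set does not check the genotype labels.

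**Figure D5:**
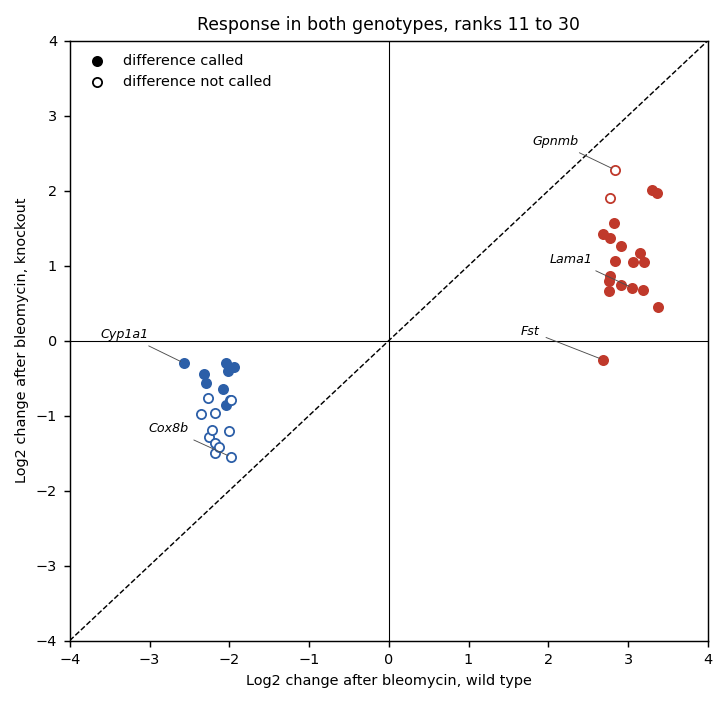
Log2 change after bleomycin in knockout lungs (y axis) against that in wild-type lungs (x axis) for the 40 genes at ranks 11 to 30 of the wild-type rises and falls, filled where the difference between the responses was called. All 40 lie nearer zero on the knockout axis than on the wild-type axis. The genes were picked by the size of their wild-type change, which by itself favours such a position. Fst, at -0.26 in the knockout, is the one that changed sign.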

How the data were processed

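Whole-lung RNA of 12 samples had been hybridized to Affymetrix arrays, 1 array per sample, and the deposited table holds 1 log2 value per probe set and array. Of tools, affy, RMA and limma are named in the submitters' processing notes, with no version; per the labels' protocols, RNA was extracted with Trizol and labelled with biotin. The values behave as RMA output, on a common log2 scale after normalization by the authors. Probe sets were named through the platform annotation: 34958 had 1 gene, 932 several and 9211 none. Symbols were updated with the RefSeq GRCm38.p6 gene table, in which 34754 probe sets matched by Entrez identifier. A genome build is not given in the sources used here for the arrays, and the promoter table was used for sequence and coordinates of that build only. Detection calls were not used, so dim signal was judged by level, and the number of arrays, 3 per group, limits the precision.

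All 12 arrays entered 1 limma 3.58.1 fit (R 4.3.3) with 4 group means, no block and eBayes without trend, which gave 8 residual and 4.86 prior degrees of freedom. Calls used a Benjamini-Hochberg adjusted p under 0.05 over 18194 genes. Without saline array 2, whose RNA controls stood apart, 4668 genes were called in place of 5045. The fit was tested on simulated data. Correlations gave no clear sign that the same replicate number pairs samples across groups, which 3 arrays per group cannot exclude. Python 3.11.15 with matplotlib 3.10.9 made the figures. Of 64 gene lists, with 1722 measured genes in all, and 49 symbol families, members were counted by direction, with no test of a list. The members, lists and tests were chosen with earlier results of these data known. Genes were named by rule: ranks 11 to 30 in each direction among calls without overlap, the 10 smallest p, up to 3 smallest p per direction and up to 3 textbook anchors of each list, Retnlb, and genes with opposite probe sets. Outside the rule, and chosen after their values were seen, were Acvrl1, Bgn, Ccng1, Ctla4, Dgat2, F10, Fcgr2b, Fmo2, Fmod, Gapdh (also an RNA control), Hbegf, Hif1a, Igf1r, Itga5, Junb, Lox, Nid1, Olr1, Osmr, P2ry6, Pigr, Prdm1, Procr, Ptger3, Racgap1, Scgb3a2, Smad6, Tbx21, Tek, Ube2c and Wnt2. Alternatives were the 6 wild-type arrays alone, a mean of at least 5, array medians subtracted, quantile normalization repeated, trend with robust eBayes, the mean of all probe sets, array weights, a replicate block, a 1.2-fold minimum, and each array left out.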

Additional observations from a re-analysis of the deposited data

Results flagged for a closer look

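Of the genes named here, 153 differed in their response to bleomycin between the genotypes, with an adjusted p under 0.05 in the limma test of the difference itself over all 18194 genes. Values are the knockout response minus the wild-type response, in log2 units: 112 were negative and 41 positive. A negative value means that the knockout change lay below the wild-type change. That can be a smaller rise, a larger fall or a change of sign, and a positive value means the opposite. Fst, for example, rose by 2.69 in wild type and changed by -0.26 in the knockout. Igha, the immunoglobulin A heavy chain gene, was the one called rise that was larger in the knockout, 2.12 log2 units against 0.96, a difference of 1.16.

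Among genes of dividing cells it was -1.78 for Cep55, -1.54 for Iqgap3, -1.5 for Kif20a, -1.5 for Rrm2, -1.45 for Brca1, -1.41 for Pbk, -1.38 for Kif20b, -1.36 for Kif11, -1.26 for Cdk1 and -1.2 for Racgap1. Further values of the group were -1.18 for Ube2c, -1.10 for Cdc6, -1.05 for Aurka, -0.97 for Chek1, -0.80 for Rfc5 and -0.48 for Pcna. For matrix, protease and coagulation genes the values were -2.35 for Lama1, -2.22 for Cthrc1, -2.16 for Adamts12, -1.98 for Kng1, -1.91 for Cilp, -1.65 for Vcan, -1.61 for Serpina3n, -1.45 for Lox, -1.39 for Tfpi2 and -1.30 for Eln. The others of this group stood at -1.15 for Has2, -1.05 for F7, -0.78 for Mfap5, -0.39 for Bgn and 0.75 for Mfap4. In the group of adhesion, S100 and epithelial genes the difference was -1.73 for S100a4, -1.42 for Cldn4, -1.26 for S100a14, -1.24 for Tgm1, -1.19 for Sfn, -0.87 for Itgb2, -0.73 for Cdh11, 0.55 for Cebpa, 0.64 for Itga8, 0.88 for Abca3, 1.12 for Tppp3, 1.46 for Cftr and 1.79 for Cdh16. Myeloid genes gave -2.17 for Wfdc17, -1.66 for Msr1, -1.54 for Mmp8, -1.49 for Fcgr1, -1.39 for Clec4n, -1.36 for Fcgr2b, -1.26 for C3ar1, -1.23 for Ms4a6c, -1.18 for Clec4a2 and -1.12 for Cd200r1. The others of this group stood at -1.05 for Axl, -1.02 for Cd68, -1.0 for Ccr2, -0.97 for Clec7a, -0.80 for Mrc1, -0.80 for Tlr2, -0.73 for Lrg1, -0.70 for Bst1 and -0.59 for Ctss. Among cytokine, chemokine, tumour necrosis factor receptor and lymphoid genes it was -1.97 for Ccl12, -1.62 for Socs3, -1.31 for Cxcl10, -1.25 for Lif, -1.05 for Il1rn, -1.02 for Eda2r, -0.82 for Il1r1, -0.79 for Tnfrsf1b, -0.73 for Tnfrsf18, -0.61 for Tnfrsf4, -0.52 for Osmr, 0.57 for Gata3 and 1.72 for Gzma.

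For growth factor, Wnt and guidance genes the values were -2.94 for Fst, -2.51 for Ereg, -2.42 for Dkk2, -2.01 for Sfrp1, -1.74 for Pdgfc, -1.15 for Sema3d, -1.12 for Epha3, -0.74 for Wnt5a, 0.90 for Bmp6, 0.94 for Fgfr4 and 1.17 for Igfbp6. In the group of genes of lipid and lipid mediator metabolism the difference was -2.93 for Pla1a, -2.13 for Ptger3, -1.62 for Pla2g7, -1.38 for Cyp7b1, -0.84 for Tbxas1, 0.72 for Gpam, 1.28 for Apoc1, 1.51 for Ptgfr, 1.62 for Lrat, 1.87 for Acaa1b, 2.44 for Fabp1 and 2.53 for Acoxl. Xenobiotic, glycolytic, hypoxia and other metabolic genes gave -4.15 for Arg1, -1.58 for Ankrd37, -1.13 for Ndrg1, -0.98 for Psat1, -0.55 for Hif1a, -0.46 for Gapdh, -0.42 for Pgam1, 0.72 for Fmo2, 0.78 for Gstm1 and 0.84 for Ldhb. The others of this group stood at 1.07 for Inmt, 1.2 for Cyp4b1, 1.75 for Gsta2 and 2.27 for Cyp1a1. Among genes of metal and solute transport and channels it was -2.10 for Clca3a1, -1.67 for Mt2, -1.40 for Slc40a1, -1.35 for Slc39a14, -1.10 for Slc11a1, -0.59 for Kcnn4, 1.10 for Slc38a5 and 1.60 for Scn3a. For immediate early, stress and clock genes the values were -1.74 for Egr1, -1.71 for Fos, -1.37 for Junb, -1.10 for Myc, -0.70 for Bhlhe40, 0.48 for Cry2, 0.50 for Tef, 0.54 for Jun, 0.67 for Ddit3, 0.69 for Herpud1 and 0.76 for Hlf. In the group of receptor, G protein, vesicle and endothelial genes the difference was -2.55 for Rgs5, -1.80 for Selp, -1.55 for Rgs4, -1.17 for P2ry14, -1.05 for Mmrn1, -0.95 for P2ry6, -0.85 for Rab3il1, -0.74 for Gpr160, -0.64 for Rab32, 0.86 for Rab6b, 1.03 for Gpr155 and 1.13 for Ednrb. The remaining genes gave -1.88 for Mest, -1.01 for Tubb6, -0.84 for Zfp423, -0.81 for Zfp521, -0.67 for Foxs1, 1.25 for Klf15, 1.44 for Bex4 and 1.71 for Krt79.

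With 3 arrays per group, no formal test for an outlying array was run.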

How the results depend on the processing

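The 5045 calls in wild-type lungs were 3909 to 7175 under the alternatives to the fit, the level minimum and the scaling, and 4052 to 4671 with each wild-type array left out, with 1995 to 2464 rises and 2057 to 2509 falls. Subtracting array medians shifted the split to 1955 rises and 3295 falls. A minimum of 1.2-fold lowered the counts by its construction, to 1759 genes, 1012 higher and 747 lower, and to 157 for the difference between the responses. That difference was called in 1888 genes with array weights and in 380 to 1052 with 1 array left out; the cause was not tested. With a replicate block, 4617 genes were called, 2262 higher and 2355 lower. The replicate numbers gave no clear sign of pairing: same-number correlations were -0.077, 0.001 and 0.203 in wild type and 0.022, -0.098 and -0.025 in the knockout, and not every sample correlated best with its own number. Deviations from means of 3 arrays cannot exclude pairing. Of 309 called genes named here, 275 were called under every setting that tested them and 304 in every fit with a wild-type array left out. With the mean of all probe sets Syngr1 changed by 0.14 and Tfdp2 by 0.23, against falls on the tested probe set. No other called gene named here turned its direction, and named genes that were not called were not checked for this. In 143 counts of list and family members, 81 were within 1.5 times of the reported count under all settings but the 1.2-fold minimum. TTTGAA was in 36.0% of mitosis promoters with the 250-base window. The 51 genes with opposite probe sets were 59 with a mean of at least 5. Of genes with a mean under 4, 6.25% were called.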

Other observations

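Families of guidance molecules, which steer axons and vessels, changed in both directions. Of 29 semaphorin and plexin genes 8 rose and 6 fell: Sema3d rose 1.88-fold (adjusted p = 5.76e-04) and Sema7a, which integrins recognize, 1.65-fold (adjusted p = 7.78e-04), while Sema3g, a ligand made by endothelium, fell 1.51-fold (adjusted p = 0.00114). Among 21 ephrins and Eph receptors 6 rose and 5 fell, with Epha3 higher by 1.99-fold (adjusted p = 5.05e-04), Efnb2, an arterial ligand gene, lower by 1.56-fold (adjusted p = 0.00159), and Epha1 lower by 2.06-fold (adjusted p = 0.00265). With all probe sets of each gene averaged, Efnb2 was no longer called (adjusted p = 0.724). The 6 falling semaphorin and plexin genes were 3 in the fit of the 6 wild-type arrays alone and 3 with the probe sets of each gene averaged, and 3 without saline array 1, bleomycin array 2 or bleomycin array 3. Fox transcription factor genes rose in 4 of 37 and fell in 9. Foxs1, of perivascular cells, rose 1.68-fold (adjusted p = 4.05e-04), and the airway and type 2 cell factor gene Foxa1 fell 2.0-fold (adjusted p = 0.00278). The 4 rising Fox genes were 2 in the fit of the 6 wild-type arrays, 2 among genes with a mean of at least 5 and 2 with array weights, and 2 without saline array 2 or saline array 3, and the 9 falling ones were 5 with the mean of all probe sets. The small GTPase gene Rab32, of lysosome-related organelles, rose 1.87-fold (adjusted p = 5.69e-05), and Rab6b fell 1.91-fold (adjusted p = 3.19e-04).

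Some genes gave calls in opposite directions on different probe sets. Of 34958 probe sets, 7482 were called when tested one by one, 3961 higher and 3521 lower, and 51 genes had both a rise and a fall. In Itgb1, the shared beta chain of collagen and fibronectin receptors, the tested probe set rose by 0.75 ± 0.20 (log2, SE) and another by 0.86 ± 0.19, and the other fell by 1.13 ± 0.22. The mean of its probe sets changed by 0.18 (adjusted p = 0.255). In Ms4a6c the brighter probe set rose by 1.08 and the dimmer fell by 0.80. For the nucleolin gene Ncl the probe sets changed by 0.26, 0.70 and -0.46, and for Ssr1, a translocon subunit gene, by 0.24, 0.84 and -0.74. Tfdp2, a partner of E2F factors, is represented in the gene table by a probe set that fell by 0.42 while the other called sets rose by 0.44 and 0.95. The lipid-handling list counts Syngr1 as a fall (-0.38), although a dimmer probe set rose by 0.83. The other genes with the widest gaps were Cfp, Rab3il1, Lasp1 and Septin8.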
